A study of Mus musculus with 2 samples.

Results

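The type 2 alarmin IL-33, its receptor, the cytokines and growth factor downstream of it, the receptor for IL-4 and IL-13, and the transcription factor of the cells that carry them were followed through every cell class of a mouse lung suspension. The 8 genes were taken by symbol from the 27998 genes of the deposited matrices: Il33, Il1rl1, Il13, Il5, Il4, Areg, Il4ra and Gata3, each present in 1 row. The study holds 2 single-cell libraries of lung, labelled control and fibrosis, each from 1 mouse. Both mice were male C57Bl/6J aged 3 months, both were given 100 µg of a particle (TiO2 or crocidolite asbestos) into the trachea, and both were killed on day 14. The labels do not say which mouse had which particle, so the libraries are named by their labels. Lungs were perfused, opened with dispase and DNase I, freed of red cells and run on the 3′ V2 chemistry of 10x Genomics.

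IL-33 is a nuclear cytokine of barrier cells that is set free when they are damaged, which is why it is called an alarmin. It binds ST2, the product of Il1rl1, on group 2 innate lymphoid cells, on T helper 2 cells, on tissue regulatory T cells, and on mast cells and basophils. Stimulated cells of these kinds can make IL-13, IL-5 or amphiregulin (Areg), in the lymphocytes among them under the transcription factor GATA3. IL-4 and IL-13 share the receptor chain encoded by Il4ra, which acts through STAT6 on macrophages and on airway epithelium.

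After removal of poor cells and doublets, 7510 control and 6559 fibrosis cells remained, with a median of 3691 and 4238 unique molecular identifiers (UMIs, each standing for 1 captured RNA molecule) per cell. The libraries shared 89 cell barcodes. Cells were clustered without any gene of the lists used here and named from fixed markers. In all, 15 classes with at least 50 cells in each library were compared; proliferating cells, which join several lineages, and mixed clusters were not. AT2-like cells (alveolar type 2, the surfactant-making cells of the alveolus) held a UMI of a median 7 of 7 AT2 markers in both libraries. The median was lowest in type 2 dendritic-like cells (2 of 6 markers in both libraries), nonclassical monocyte-like cells (3 and 2 of 6) and T-like cells (3 of 6), and regulatory T-like cells held 2.5 and 3 of 5. A level is given in CPM, the UMIs of the gene per 1000000 UMIs of the class, with an exact 95% Poisson interval. A ratio is fibrosis over control on the log2 scale with an exact conditional interval. With 1 library a group, no test was possible, and all intervals cover counting error only, not the spread between mice. In the compared class with most of its UMIs, none of the 5 genes with at least 20 UMIs there (Il33, Il1rl1, Areg, Il4ra and Gata3) differed by 2-fold or more between the libraries. Among all 13563 genes tested in the same way, 5.63% did. Over every pair of gene and compared class with at least 20 UMIs, 9 of the 29 pairs of these genes differed by 2-fold, 8 of them higher in the fibrosis library, against 8.03% of the pairs of all genes. They are Il33 in 4 classes, Areg and Il4ra in 2 each and Il1rl1 in 1, and 2 of them, Areg and Il4ra in club-like cells, drew 174 of 181 and 8 of 18 fibrosis UMIs from 1 cell. The share among all genes ran from 4.17% in AT2-like to 22.9% in club-like cells and was higher at low counts. The 29 pairs were not matched to all pairs by class or count.

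**Figure D1:**
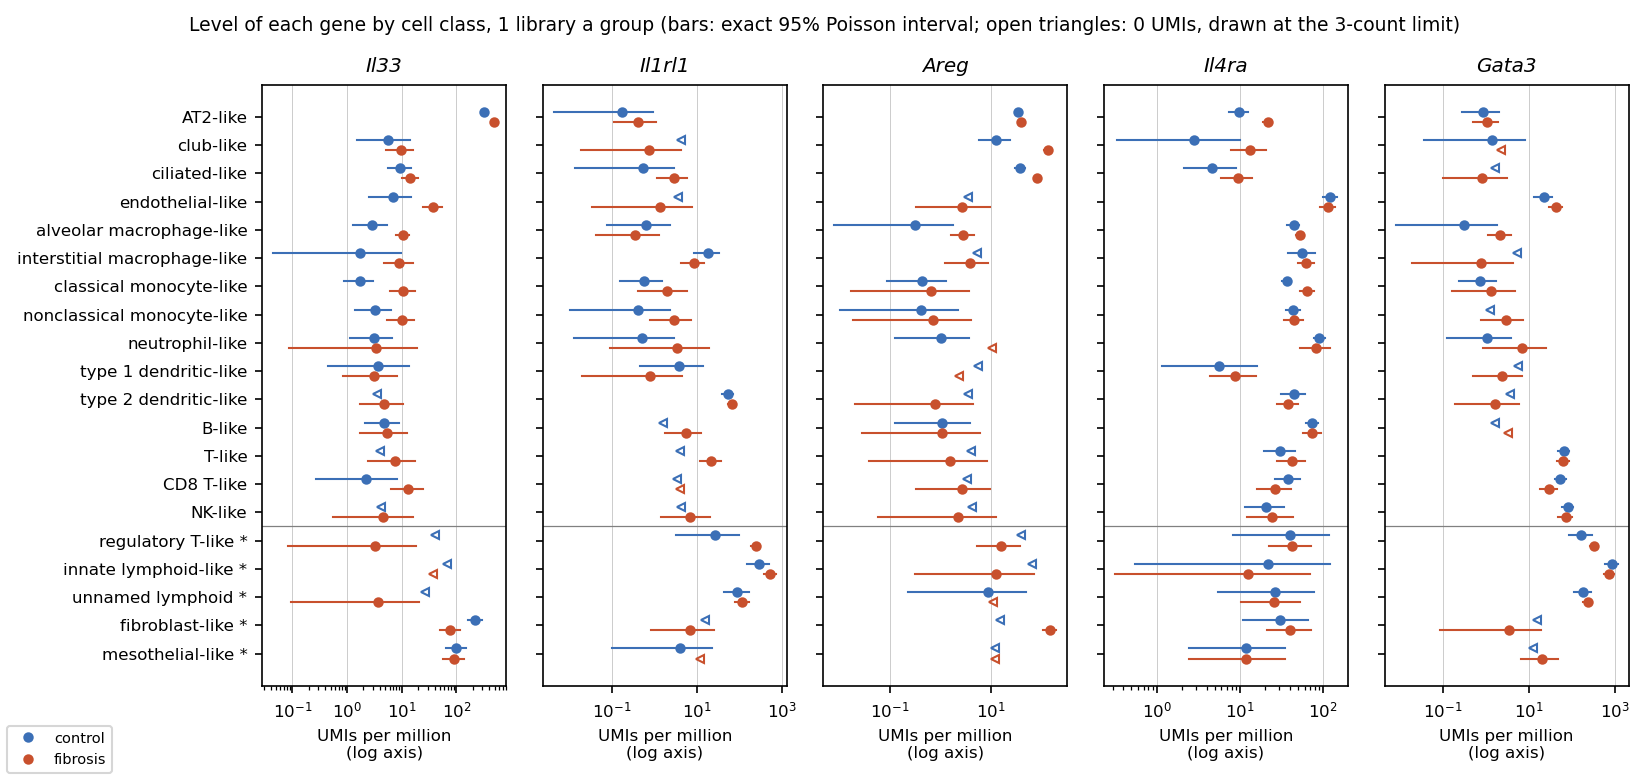
Level of 5 genes (CPM, log axis) in each cell class of the control (blue) and fibrosis (orange) libraries, with exact 95% Poisson intervals. Classes marked * had fewer than 50 cells in at least 1 library, and open triangles stand for 0 UMIs, drawn at the limit of 3 counts. Il33 was highest in AT2-like cells, and Il1rl1 in innate lymphoid-like cells and, among the classes above the line, in type 2 dendritic-like cells.

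Il33 (GRCm38 chr19:29925114-29960718, plus strand) was an AT2 transcript in this suspension. AT2-like cells held 1882 of the 2091 Il33 UMIs of the control library, or 90.0% (95% interval 88.6 to 91.3), and 4809 of 5503 in the fibrosis library, or 87.4% (86.5 to 88.3). The level in these cells was 316 CPM (302 to 330) in control and 494 (481 to 509) in fibrosis cells, a log2 ratio of 0.65 (0.57 to 0.72) that stayed between 0.61 and 0.68 under 11 other ways of processing. Il33 over all kept cells differed more, at 64.5 and 161 CPM (log2 ratio 1.32, 1.25 to 1.40), with 981 control and 1614 fibrosis AT2-like cells.

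Per cell, the Il33 distribution was shifted and wide. The median AT2-like cell held 1 Il33 UMI among control cells and 2 among fibrosis cells, the upper quartile 2 and 4, and the highest cell 49 and 64. At least 5 UMIs were found in 8.56% of control and 20.01% of fibrosis AT2-like cells. After every cell was thinned to 1000 UMIs, so that depth was equal, 23.5% (20.9 to 26.3) of control and 32.8% (30.5 to 35.1) of fibrosis AT2-like cells held an Il33 UMI, against 67.0% and 74.2% unthinned. The same thinned share in B-like cells, which should lack the gene, was 0.450% and 1.15%. Median depths were 5643 and 5431 UMIs in AT2-like cells.

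The AT2-like cells fell into a pair of clusters, in which Il33 did not have the same order. In the first (792 control and 960 fibrosis cells) the level was 334 and 409 CPM. In the second (189 and 654 cells), whose leading genes included Sftpd, Chia1, Chil1, Hc and Lcn2, it was 248 (221 to 277) and 597 (575 to 620). The second cluster was thus the lower of the pair among control cells and the higher among fibrosis cells. The sizes of the clusters are not compared, since the genes that define them may differ between the libraries.

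**Figure D2:**
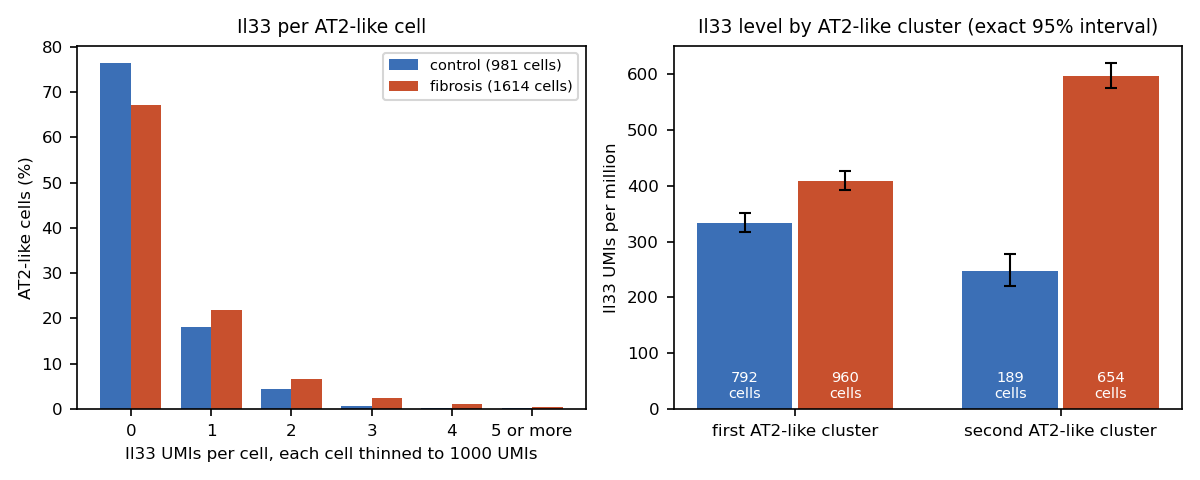
Left, share of AT2-like cells (%) by the number of Il33 UMIs per cell after each cell was thinned to 1000 UMIs. Right, Il33 level (CPM, exact 95% interval) in the first and second AT2-like cluster, control in blue and fibrosis in orange: 334 and 409 in the first, 248 and 597 in the second.

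Il33 was also measured in stromal cells. The fibroblast-like cells held 44 Il33 UMIs in 46 control cells and 23 in 54 fibrosis cells, or 221 (161 to 297) and 77.9 (49.4 to 117) CPM. Their log2 ratio was −1.51 (−2.30 to −0.75), opposite in sign to that of AT2-like cells; among all genes tested in fibroblast-like cells, 10.4% differed by 2-fold or more in either direction. Without the highest cell of each library it was −1.38 (−2.28 to −0.52). Mesothelial-like cells, the lining of the lung surface, held 100 (64.7 to 148) and 91.1 (57.7 to 137) CPM. Beside these levels, Il33 was counted per 1000 UMIs of the surfactant transcript Sftpc, the main AT2 product. AT2-like cells had 1.57 and 2.81 Il33 UMIs per 1000 Sftpc UMIs, fibroblast-like cells 22.6 (16.4 to 30.3) and 68.3 (43.3 to 102), and mesothelial-like cells 37.7 and 81.9. The cluster named lymphatic endothelial-like (14 and 27 cells) had 298 and 69.6 Il33 CPM, and 2.12 (1.26 to 3.35) and 1.67 (0.864 to 2.92) per 1000 Sftpc. Its control cells held a median of 1 of 6 lymphatic markers, against 6 in fibrosis cells, and 140767 Sftpc CPM, against 201333 in AT2-like cells, so the name does not hold for them.

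Il33 in the other large classes was far lower, and higher in the fibrosis library in several of them. Endothelial-like cells held 6 and 28 UMIs (6.93 and 37.2 CPM), alveolar macrophage-like cells 9 and 60 (2.81 and 10.5), and classical monocyte-like cells 12 and 16 (1.72 and 10.6). Per 1000 Sftpc these were 4.01 and 9.03, 2.38 and 6.49, and 1.78 and 8.02, and in B-like cells 2.4 and 3.16. Of the 14 compared classes other than AT2-like cells, the interval of this ratio lay above the AT2 value in 1 in the control library, the ciliated-like cells (5.25, 3.11 to 8.30). It did so in 6 in the fibrosis library, namely endothelial-like, alveolar macrophage-like, both kinds of monocyte-like, ciliated-like and CD8 T-like cells. In the other classes it included that value. Of the ciliated-like Il33 UMIs, 12 of 18 in control and 11 of 35 in fibrosis cells lay in 1 cell. The ratio to Sftpc without those cells was not computed. The count also depended on very deep cells. Airway cells (ciliated-like and club-like) with at least 3 ciliated markers held 18 and 35 Il33 UMIs. Without cells above 30000 UMIs they held 17 and 4 (log2 ratio −2.52, −4.55 to −0.90), with 12 of the 17 in 1 cell. The part of free RNA in these low counts was not tested.

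**Figure D3:**
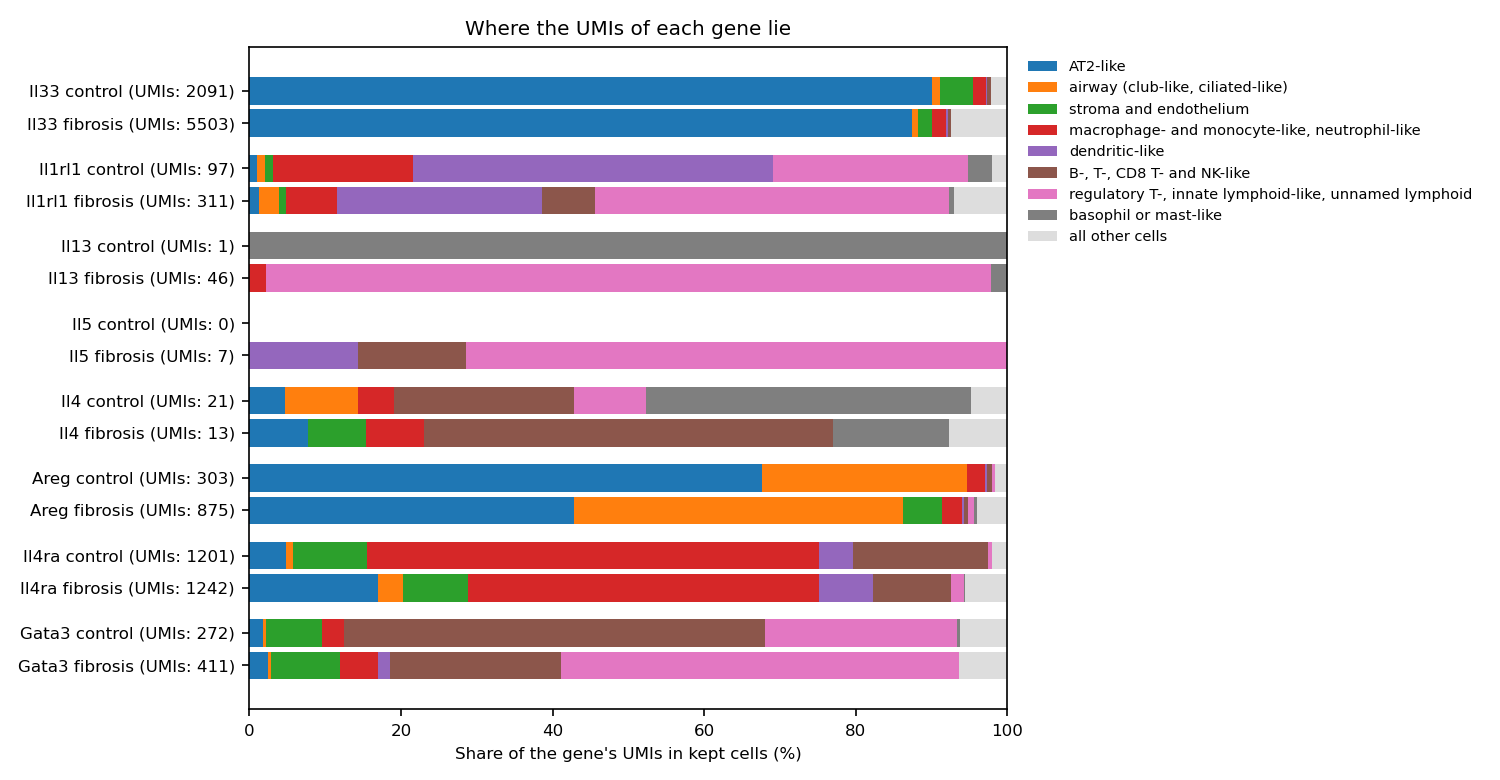
Share (%) of each gene's UMIs in kept cells that lay in each group of cell classes, 1 bar per gene and library, with the number of UMIs beside the bar. AT2-like cells held most Il33, macrophage-, monocyte- and neutrophil-like cells most Il4ra, and the regulatory T-like, innate lymphoid-like and unnamed lymphoid cells 44 of 46 Il13 UMIs in the fibrosis library.

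Il1rl1 (chr1:40429570-40465415, plus strand), the receptor for IL-33, was found almost wholly outside the AT2-like cells. The libraries held 97 UMIs in 74 control cells and 311 in 185 fibrosis cells, or 2.99 and 9.12 CPM (log2 ratio 1.61, 1.27 to 1.95). AT2-like cells, with most of the ligand, held 1 and 4 of them. Most of its UMIs lay in lymphoid cells of 1 cluster and in type 2 dendritic-like cells.

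The lymphoid cluster held 83 control and 224 fibrosis cells. Its highest marker scores were for regulatory T cells (4.84) and T cells (4.31). Its leading genes included the innate lymphoid markers Cxcr6, Icos, Il7r, Klrg1 and Thy1. By the naming rule it stayed unnamed as a whole. Single cells were gated as regulatory T-like (28 and 106), by Foxp3 or by a pair of other markers with a Cd3 transcript, or as innate lymphoid-like (15 and 30, with no Cd3 UMI); the other cells of the cluster (46 and 96) are called unnamed lymphoid here. Of the regulatory T-like cells 22 and 98 lay in the cluster, and the 6 and 8 from other clusters held no Il1rl1 UMI. Over the whole cluster, Il1rl1 stood at 116 CPM (75.04 to 171) in control and 228 (193 to 268) in fibrosis cells, in 16 of 83 and 71 of 224 cells, a log2 ratio of 0.98 (0.36 to 1.65). Of all genes tested in this cluster, 5.78% were at least 2-fold higher in the fibrosis library.

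Of these 3 sets of cells, the regulatory T-like cells had the largest ratio between the libraries, and whether the ratios differ between the sets was not tested. They held 2 Il1rl1 UMIs in 2 of 28 control cells and 73 in 42 of 106 fibrosis cells, or 26.7 (3.23 to 96.5) and 235 (184 to 296) CPM. The log2 ratio was 3.14 (1.23 to 6.21), and between 2.25 and 4.05 under the alternatives. In this class 12.3% of all genes tested were at least 2-fold higher in the fibrosis library, and the control side had fewer than 50 cells. Thinned to 1000 UMIs, 0 of 28 control cells, or at most 10.7% at the 3-count limit, and 21.7% (14.3 to 30.8) of fibrosis cells held Il1rl1, against 7.14% and 39.6% unthinned. The gate takes activated T cells as well as regulatory ones, so the cells with a UMI of Foxp3, the defining factor of regulatory T cells, were also counted alone. Among these, Il1rl1 was in 0 of 13 control cells (up to 23.1%) and in 20 of 45 fibrosis cells, or 44.4% (29.6 to 60). Among those without a Foxp3 UMI it was in 2 of 15 and in 22 of 61.

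Innate lymphoid-like cells had the highest Il1rl1 level of any class in both libraries, at 286 CPM (152 to 489) in 8 of 15 control cells and 515 (369 to 698) in 15 of 30 fibrosis cells. These intervals overlap, as do those of the unnamed lymphoid cells, at 88.1 (42.3 to 162) and 115 (78.1 to 163). T-like cells outside the cluster held 0 UMIs in 306 control cells and 14 in 6 of 253 fibrosis cells, and NK-like cells 0 and 3. Of the 14, 5 lay in 1 cell with 0 Cd3 UMIs. Proliferating cells held 2 UMIs in 1 of 73 control cells and 22 in 11 of 157 fibrosis cells (3.45 and 18.04 CPM). Basophil or mast-like cells, a gate of 17 and 7 cells, held 3 and 2 UMIs (87.6 and 42.0 CPM).

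**Figure D4:**
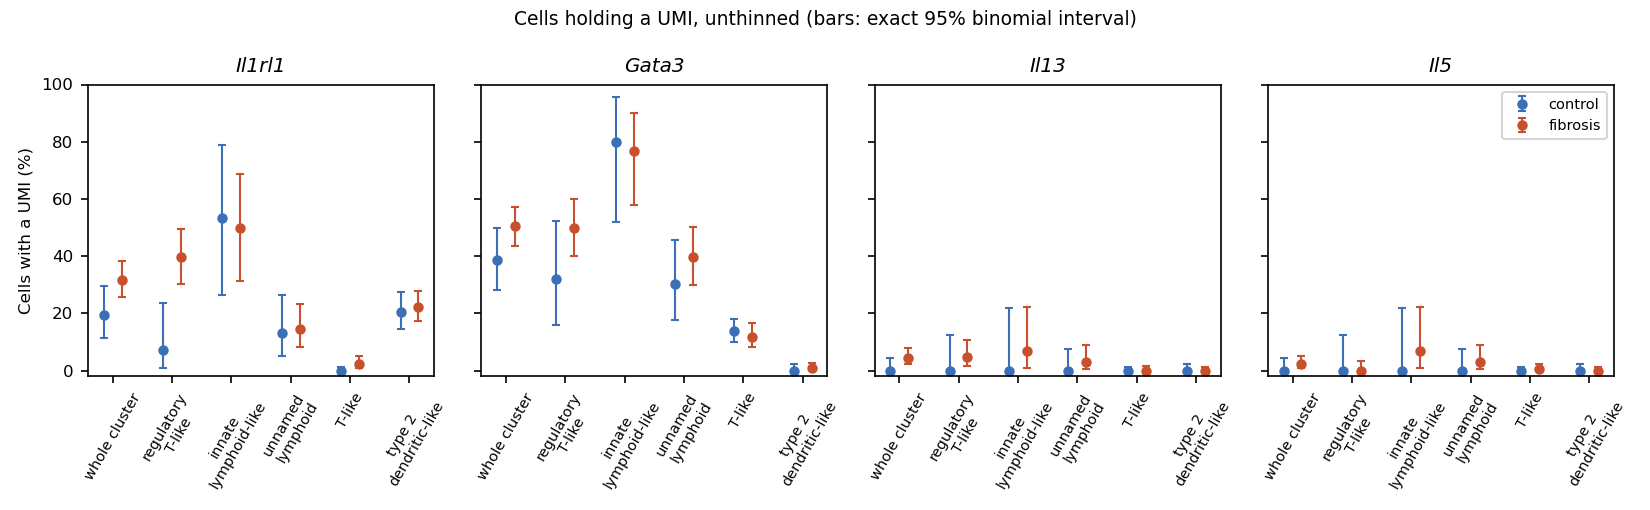
Share of cells (%) with at least 1 UMI of Il1rl1, Gata3, Il13 and Il5 in the whole lymphoid cluster, regulatory T-like, innate lymphoid-like and unnamed lymphoid cells, T-like and type 2 dendritic-like cells, with exact 95% binomial intervals and no thinning, control in blue and fibrosis in orange. Il1rl1 was in 7.14% of control and 39.6% of fibrosis regulatory T-like cells, while the innate lymphoid-like cells stood at 53.3% and 50%.

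Type 2 dendritic-like cells were the class of 50 or more cells with most Il1rl1 UMIs. They held 44 UMIs in 33 of 161 control cells and 82 in 58 of 259 fibrosis cells, or 51.6 (37.5 to 69.3) and 65.0 (51.7 to 80.7) CPM. The libraries did not separate in this class (log2 ratio 0.33, −0.21 to 0.90), and the sign turned to −0.58 when each cell was gated by itself and to −0.26 at a clustering resolution of 2. Thinned, 4.97% and 6.56% of these cells held a UMI, against 0 of 889 and 0.287% of B-like cells. They held 45.4% of the Il1rl1 UMIs of the control library and 26.4% of those of the fibrosis library. Interstitial macrophage-like cells held 10 and 11 UMIs, or 17.6 and 8.29 CPM (log2 ratio −1.09, −2.46 to 0.31).

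Il13 (chr11:53631324-53634702, minus strand) and Il5 (chr11:53720794-53725106, plus strand), which like Il4 lie on chromosome 11, are effector cytokines of type 2 lymphocytes. IL-13 drives mucus production and IL-5 eosinophils. Both were close to 0 in the control library. Il13 was 1 UMI in 1 control cell and 46 UMIs in 12 fibrosis cells. Of these 46, 28 came from 1 unnamed lymphoid cell of 7455 UMIs that also held 4 Cd3, 3 Il1rl1 and 2 Gata3 UMIs, so 18 UMIs in 11 cells remain without it. Il5 was at 0 in the control library and at 7 UMIs in 7 fibrosis cells.

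Nearly all of this lay in the lymphoid cluster, where 10 of 224 fibrosis cells held 44 Il13 UMIs, or 69.2 CPM (50.3 to 92.9), and 0 of 83 control cells held any (at most 3.61% at the 3-count limit). The fibrosis level was 4.98-fold the level of 3 counts in the control cells, and 1.81-fold without the top cell. The lower end of the exact log2 ratio interval was 1.96, and 0.39 without the top cell. That interval counts UMIs as if they were separate, and 28 of the 44 lay in 1 cell. By cells, the shares with Il13 were 4.46% (2.16 to 8.06) in fibrosis and 0% (0 to 4.35) in control cells, and these intervals overlap. By set, the regulatory T-like cells held 7 Il13 UMIs in 5 cells, the innate lymphoid-like cells 7 in 2 cells, and the unnamed lymphoid cells 30 in 3 cells. Il5 was in 5 cells of the cluster, 2 of them innate lymphoid-like and 3 unnamed lymphoid, each with 1 UMI. The other 2 Il5 cells were a migratory dendritic-like cell and a cell of a T-like cluster. The latter held 0 Cd3, 5 Il1rl1 and 1 Gata3 UMIs, so its own counts do not bear out the T-like name. The other 2 Il13 UMIs lay in an alveolar macrophage-like cell and in a cell gated as basophil or mast-like.

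The cells with a cytokine UMI often held the receptor too, except in the innate lymphoid-like set. In the cluster, 14 fibrosis cells had Il13 or Il5, and 9 of them had Il1rl1, 9 had Gata3, 7 had both and 11 had at least 1 of the pair. Over the whole cluster Il1rl1 was in 31.7% and Gata3 in 50.4% of fibrosis cells. Depth was not matched between these cells and the cluster. By set, Il1rl1 was in 4 of 5 regulatory T-like, 1 of 4 innate lymphoid-like and 4 of 5 unnamed lymphoid cells with Il13 or Il5. A Cd3 transcript was in 8 of the 14 and Foxp3 in 3. Only 1 cell held both Il13 and Il5. At these counts a cell without a UMI cannot be called a cell without the transcript.

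Upstream sequence is shown for the receptor and both cytokines that were seen together in these cells, because GATA3 binds the letters GATA in a short context. The 250 bases before each start site are from RefSeq (GRCm38.p6), 5′ to 3′ on the gene's strand. Capitals mark GATA with A or T before it and A or G after it, on either strand; no matches overlap here. Il1rl1 (first of its start sites, chr1:40429320-40429569, plus strand) has 5 such matches, Il13 (chr11:53634703-53634952, minus strand) 1 and Il5 (chr11:53720544-53720793, plus strand) 1.
Il1rl1: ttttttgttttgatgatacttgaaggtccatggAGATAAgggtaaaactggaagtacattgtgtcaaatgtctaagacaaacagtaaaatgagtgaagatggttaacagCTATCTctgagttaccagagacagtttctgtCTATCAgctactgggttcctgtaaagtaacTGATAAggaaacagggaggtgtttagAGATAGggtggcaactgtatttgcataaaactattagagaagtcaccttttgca
Il13: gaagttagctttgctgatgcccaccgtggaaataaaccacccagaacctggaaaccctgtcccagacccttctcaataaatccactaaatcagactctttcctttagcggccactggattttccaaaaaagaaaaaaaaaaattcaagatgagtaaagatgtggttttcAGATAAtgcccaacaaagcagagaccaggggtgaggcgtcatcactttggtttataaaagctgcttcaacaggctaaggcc
Il5: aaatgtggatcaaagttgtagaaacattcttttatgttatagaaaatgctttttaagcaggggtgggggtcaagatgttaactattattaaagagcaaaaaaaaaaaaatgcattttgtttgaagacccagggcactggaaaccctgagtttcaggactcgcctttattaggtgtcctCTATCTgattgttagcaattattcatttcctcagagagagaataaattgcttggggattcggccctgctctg
The other start site of Il1rl1 has 1 match, and so does 1 of the start sites of Il4, while the windows of Il33, Areg, Il4ra and Gata3 hold none of these letters. At least 1 match stands in 8718 of 32851 RefSeq promoter windows of this length, or 26.5%, so 1 match is common. The letters of a STAT6 site, TTC and GAA with 4 bases of any kind between, stand in 5.85% of the windows, and among the 8 genes in 1 start site of Il33 and 1 of Il4. A match is a description of the letters and not a measured site.

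Il4 (chr11:53602982-53618669, minus strand), the cytokine that sets T helper 2 and IgE responses, did not follow Il13. It was 21 UMIs in 18 control cells and 13 in 11 fibrosis cells (log2 ratio −0.77, −1.89 to 0.30), with at most 3 in a cell. In the control library 9 of the 21 lay in 7 of 17 basophil or mast-like cells, and 6 of those 7 held Mcpt8, a basophil protease. Of these 17 cells, 14 lay in the club-like cluster, and the median cell held 5 of 8 markers of the gate. The fibrosis library had 7 cells in the gate, scattered over 6 clusters and none in the club-like one, with a median of 2 markers; 3 of them held Mcpt8, and all 7 together 2 Il4 UMIs. The cells in the gate were thus unlike between the libraries, and their counts are not compared. T-like cells held 3 and 6. The cluster with the Il13 cells held 2 Il4 UMIs in control and 0 in fibrosis cells.

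Gata3 (chr2:9857078-9890034, minus strand) marked the same lymphoid cells and a wider set of lymphocytes. Its level over all kept cells was 8.39 and 12.1 CPM, in a total of 272 and 411 UMIs. Innate lymphoid-like cells were highest, at 814 (573 to 1122) in 12 of 15 control cells and 716 (542 to 927) in 23 of 30 fibrosis cells. Regulatory T-like cells stood at 160 (82.8 to 280) and 316 (256 to 385), a log2 ratio of 0.98 (0.11 to 1.98) whose interval reached 0 when doublets were kept (0.71, −0.04 to 1.53), with a floor of 2000 UMIs per cell (0.85, −0.01 to 1.85) or with a mitochondrial limit of 5% (0.75, −0.01 to 1.61). In the whole cluster the level was 306 and 338 CPM, with a ratio interval of −0.26 to 0.56 that includes 0.

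Gata3 and Il1rl1 were often in the same cell of the cluster. Gata3 was in 11 of 16 control cells with Il1rl1 (68.8%) and in 21 of 67 without it (31.3%), and in 46 of 71 fibrosis cells with it (64.8%) and 67 of 153 without it (43.8%). Median depths of the cells with and without Il1rl1 were 2338 and 2320 UMIs in control and 2544 and 2474 in fibrosis cells. These pooled shares join sets of cells that differ in the level of both genes. In control cells the shares were 50% and 30.8% (regulatory T-like), 75% and 85.7% (innate lymphoid-like) and 66.7% and 25% (unnamed lymphoid). In fibrosis cells they were 57.1% and 45.3%, 80% and 73.3%, and 71.4% and 34.1%, in the same order. The differences between the shares with and without Il1rl1 were not tested.

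Among the other lymphocytes, NK-like cells held 57 and 31 Gata3 UMIs (78.1 and 69.6 CPM, log2 ratio −0.17, −0.85 to 0.49) and T-like cells 47 and 40 (63.0 and 60.7). CD8 T-like cells held 47 and 22 (52.6 and 29.1), a log2 ratio of −0.86 (−1.66 to −0.10) that came to −0.58 (−1.34 to 0.15) when doublets were kept. B-like cells held 0 in both libraries. Outside the lymphocytes, endothelial-like cells had 19 and 31 UMIs (21.9 and 41.2 CPM, log2 ratio 0.91, 0.04 to 1.82), and the interval included 0 without the highest cell of each library (0.85, −0.06 to 1.79).

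Areg (chr5:91139599-91148432, plus strand), a ligand of the EGF receptor that type 2 lymphocytes make for tissue repair, was an epithelial transcript here. The libraries held 303 and 875 UMIs, 9.35 and 25.7 CPM. Regulatory T-like, innate lymphoid-like and unnamed lymphoid cells together held 1 of these in control and 6 in fibrosis cells, 5 of them in 5 regulatory T-like cells. AT2-like cells held 205 and 375, or 67.7% and 42.9% of the total. Their level, 34.4 (29.8 to 39.4) and 38.6 (34.7 to 42.7) CPM, did not separate the libraries (log2 ratio 0.16, −0.08 to 0.42).

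The same gene was lower in the fibrosis library within each AT2-like cluster. In the whole first cluster Areg was 19.2 and 11.3 CPM (log2 ratio −0.76, −1.26 to −0.28), and in the second 91.1 and 71.2 (−0.36, −0.67 to −0.03). Without the highest cell of each library these became −0.80 (−1.31 to −0.30) and −0.30 (−0.62 to 0.04). The second cluster, with the higher level, gave 115 of the 205 UMIs in control and 315 of the 375 in fibrosis cells. So the pooled value and the values within clusters have opposite signs.

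In the airway, ciliated-like cells held 73 Areg UMIs in 43 of 127 control cells and 199 in 71 of 141 fibrosis cells, or 38.1 (29.9 to 47.9) and 81.5 (70.6 to 93.7) CPM. The log2 ratio was 1.10 (0.70 to 1.5), with alternatives from 0.79 to 1.17, and 4.54% of all genes tested in these cells were at least 2-fold higher. Without the cells above 30000 UMIs, 56 and 138 UMIs were left. This cluster also carried club markers, so airway cells were split again by ciliated markers. Those with at least 3 of the markers (131 and 142 cells) had 36.5 and 80.9 Areg CPM (log2 ratio 1.15, 0.75 to 1.56). Without the cells above 30000 UMIs they had 55.0 and 102 CPM (0.90, 0.44 to 1.38), which is less than 2-fold.

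The large Areg counts of club-like and fibroblast-like cells came from single cells. Club-like cells, the secretory cells of the small airway, held 9 and 181 UMIs, but 174 of the 181 lay in 1 cell of 92993 UMIs, and with cells above 30000 UMIs left out the counts were 9 and 2. Fibroblast-like cells held 0 and 43, all in 1 cell of 32824 UMIs.

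**Figure D5:**
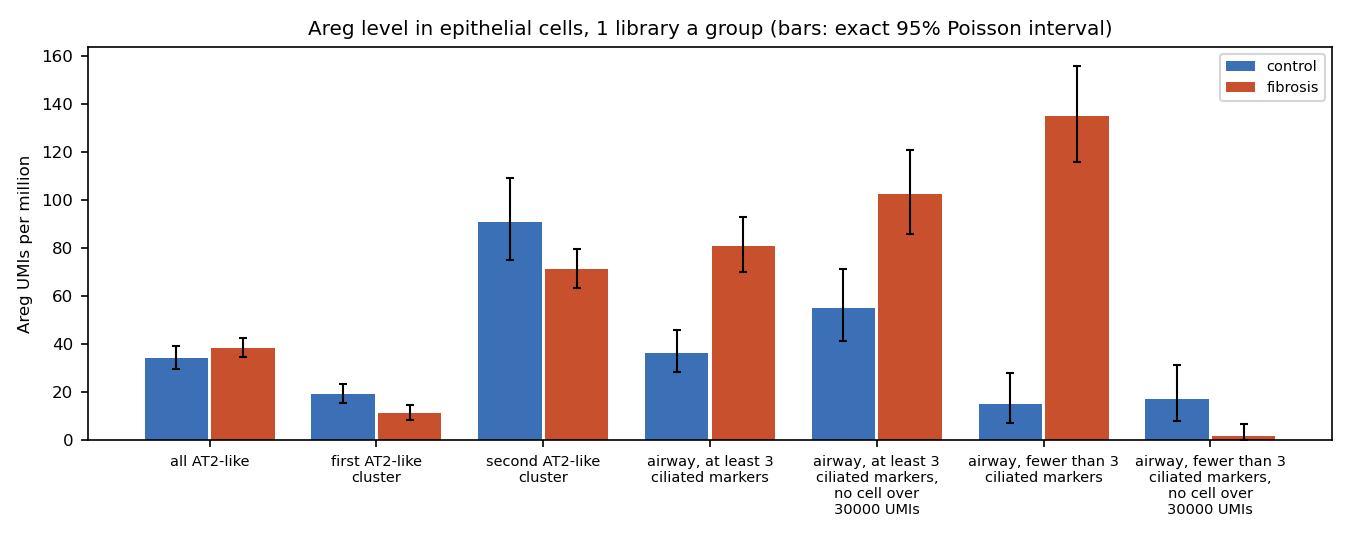
Areg level (CPM, exact 95% Poisson interval) in epithelial cells of the control (blue) and fibrosis (orange) libraries: AT2-like cells pooled and by cluster, and club-like and ciliated-like cells split by ciliated markers, with and without cells above 30000 UMIs. Within both AT2-like clusters the control bar is the higher, and the airway cells with fewer than 3 ciliated markers change order when the deepest cells are left out.

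Il4ra (chr7:125552120-125579474, plus strand) was the most widely spread of the 8 genes. Its level over all kept cells was the same to within counting error, 37.1 and 36.4 CPM from 1201 and 1242 UMIs (log2 ratio −0.02, −0.14 to 0.09). Among the 15 compared classes, the control library was led by endothelial-like cells at 121 (99.2 to 147), neutrophil-like cells at 90.7 (77.8 to 105) and B-like cells at 74.3, followed by interstitial macrophage-like cells at 56.3, and each of these overlapped the next. The corresponding fibrosis values were 114, 82.2, 74.0 and 63.3. Of the smaller classes, the 11 migratory dendritic-like control cells stood at 118 (47.3 to 243), from 7 UMIs. AT2-like, type 1 dendritic-like, ciliated-like and club-like cells were lowest in the control library, at 9.73, 5.57, 4.70 and 2.79.

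Against this level background, Il4ra was higher in the fibrosis library in AT2-like and in classical monocyte-like cells. AT2-like cells had 58 and 210 UMIs, 9.73 (7.39 to 12.6) and 21.6 (18.8 to 24.7) CPM, a log2 ratio of 1.15 (0.72 to 1.60) and of 1.00 to 1.23 under the alternatives. In AT2-like cells 2.94% of all genes tested were at least 2-fold higher. The difference was present in each AT2-like cluster, at 8.09 and 17.5 in the first and 15.9 and 26.7 in the second. Thinned, 1.33% (0.707 to 2.26) and 2.48% (1.78 to 3.36) of AT2-like cells held a UMI, so the level was low and free RNA in it was not tested. Classical monocyte-like cells had 36.6 (32.3 to 41.4) and 64.7 (52.5 to 78.8) CPM, a log2 ratio of 0.82 (0.47 to 1.16) that lay between 0.56 and 0.82 under the alternatives.

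Alveolar macrophage-like cells, which held the most Il4ra UMIs over both libraries, had 142 and 305 UMIs, or 44.3 and 53.4 CPM. The class joins 2 clusters that the libraries fill unequally. The first, of 642 control and 683 fibrosis cells, had 44.1 and 50.7 Il4ra CPM. The second, led by Mmp12 and Spp1, of 9 and 318 cells, had 47.1 and 57.5. Its control value came from 2 UMIs in 1 cell, against 126 UMIs in fibrosis cells. The log2 ratio of the class was 0.27 (−0.02 to 0.57); the interval excluded 0 with doublets kept (0.02 to 0.58), with a mitochondrial limit of 5% (0.05 to 0.76), at a resolution of 2 and when scaled by the median gene (0.04 to 0.63). Club-like cells had 2 and 18 UMIs (log2 ratio 2.25, 0.18 to 5.40), of which 8 lay in 1 cell, and without the highest cells the interval included 0 (−0.35 to 7.90). Ciliated-like cells had 4.70 and 9.42 CPM (1.00, −0.16 to 2.30).

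Likeness over classes was described by the Pearson r of log2(CPM + 1) over 30 points, 15 classes in each of 2 libraries, against 12346 genes. The points share the libraries and the class boundaries, so r is a description. Il33 was most like Scd1 (0.89), Lrp2, Lamp3, Hc and Scd2, of which Lamp3 is an AT2 marker used to name the class. Il1rl1 was most like Ank (0.80), Asgr2, Mgl2, Cd209d and Upb1, a list in which the dendritic and macrophage lectins Mgl2 and Cd209d follow the type 2 dendritic-like cells. Areg was most like the epithelial genes Wfdc2 (0.94) and Cldn3, with Ckmt1, Kcnk1 and Arhgap8. Gata3 was most like the lymphocyte genes Cd247 (0.93), Ctsw, Nkg7, Ccl5 and Sla2, and Il4ra like Arhgef3 (0.84), Ssh2, Lgals9, Dusp7 and Abi3.

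The rest of the pathway was read from 8 lists, each gene in the compared class with most of its UMIs. Of 70 further genes, 53 had at least 20 UMIs there, 15 were at least 2-fold higher in the fibrosis library and 1 was lower, against 3.48% higher and 2.15% lower among all genes tested. Of 14 signalling genes (among them Stat6, Jak1 and Myd88), 4 tested transcription factors and 6 tested EGF receptor genes and ligands, 0 passed 2-fold, which at this background says little of these genes. The interval lay above 0 in 5 of the 24 and below 0 in 3. Of these 8, the furthest from 0 were the transcription factors Irf4 in type 2 dendritic-like cells (log2 ratio 0.74, 0.18 to 1.33) and Maf in interstitial macrophage-like cells (−0.46, −0.65 to −0.27), the ligand Hbegf in AT2-like cells (0.72, 0.30 to 1.16) and Erbb2, an EGF receptor relative, there (0.47, 0.04 to 0.91). Of 8 tested receptor chains only Il5ra, the IL-5 receptor chain, did, in B-like cells with 20 and 25 UMIs (log2 ratio 1.34). Of the other alarmins, Tslp was lower in interstitial macrophage-like cells, with 17 and 14 UMIs (29.9 and 10.5 CPM), and Il25 was at 0 and 2 UMIs in all kept cells.

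The last 2 lists hold genes that IL-4 and IL-13 are known to induce. In the macrophage list 7 of 11 tested genes were at least 2-fold higher and none lower, with a median log2 ratio of 1.40 beside −0.01 for all genes. Among them, in alveolar macrophage-like cells, the eosinophil chemokine Ccl24 had 0 and 250 UMIs and the checkpoint ligand Pdcd1lg2 28 and 133. Over all kept cells Ccl24 had 68 and 366 UMIs, so it was not absent from the control library. Of the 250 Ccl24 UMIs, 248 lay in the Mmp12 and Spp1 cluster, which had 9 control cells; in the first cluster Ccl24 had 0 and 2 UMIs and Pdcd1lg2 27 and 58 (8.51 and 16.4 CPM). In type 2 dendritic-like cells the lectin Cd209e had 3 and 41. In the epithelial and stromal list 7 of 8 were higher, with a median of 3.98. Clca1, a goblet cell product, had 0 and 1373 UMIs in the ciliated-like cells, whose cluster also carried club markers, the mucins Muc5b 67 and 593 there and Muc5ac 2 and 55 in club-like cells, and Agr2, a mucin-folding protein, 8 and 196. Slc26a4, the anion exchanger pendrin, had 43 and 979 in AT2-like cells. Spdef, the goblet cell transcription factor, did not pass in its leading class, with 10 and 15 UMIs in AT2-like cells. Over all kept cells it had 16 and 46 UMIs, and its ratio outside AT2-like cells was not computed. These response genes were measured in the same 2 libraries and chosen with earlier results known, so they are no independent evidence on the 8 genes.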

How the data were processed

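The matrices hold raw UMI counts per gene and cell as the authors deposited them, with no normalisation. Per the submitters' processing notes, bcl2fastq and Cell Ranger 1.3 were run on mm10; the annotation is not given in the sources used here. Positions came from GENCODE M21 by Ensembl identifier. Cells with fewer than 200 genes (1 and 0) or over 10% mitochondrial UMIs (254 and 228) were left out. The doublet caller alone marked 13 and 168 cells, so the cells with the highest scores were removed at a rate of 0.8% per 1000 cells (515 and 386). Kept cells held 32403258 control and 34087719 fibrosis UMIs. Clusters (scanpy 1.11.5, Leiden resolution 1, 2000 variable genes without any list gene) were named when at least 3 markers were raised; 29 of 33 were named, 3 were set aside as mixed and 1 stayed unnamed. The rule for mixed clusters was set after the clusters were seen, and 2 of 179 marker symbols were absent. UMIs were summed per class and library (scipy 1.17.1), and 2-fold was counted from 20 UMIs with 0.5 added. The ratio interval was tested on simulated counts. Named genes were the 8 members, list genes past 2-fold (up to 6 a list) and the 5 most alike per member; Spdef, Stat6, Jak1, Myd88, Irf4, Maf, Erbb2, Hbegf, Il25, Il9, Il3, Il31, Il6 and Csf2 were named outside this rule, after their values were seen. The members and lists were chosen with earlier results of these data known, and the split by ciliated markers, the Foxp3 split and the removal of top or deep cells were added after the data were seen. Alternatives were no doublet removal, gating each cell by itself, Leiden resolution 0.5 or 2, a floor of 2000 UMIs, a mitochondrial limit of 5%, other scalings, and leaving out shared barcodes.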

Additional observations from a re-analysis of the deposited data

How the results depend on the processing

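None of 226 recomputed values changed from a clear direction to its opposite; 196 stayed within the 95% counting interval of the main value or, for counts of genes, within 1.5 times of it, and 30 did not, most of them shares of UMIs by class, whose intervals are narrow. No paired analysis was possible because each group has 1 library, so no replicate could be left out either. The Il33 ratio in AT2-like cells lay between 0.61 and 0.68, and that of Areg there between −0.01 and 0.17, of Il4ra in alveolar macrophage-like cells between 0.16 and 0.40, and of Gata3 in NK-like cells between −0.27 and 0.33. The Il1rl1 ratio in type 2 dendritic-like cells turned to −0.58 with each cell gated by itself and to −0.26 at resolution 2. With doublets kept, AT2-like cells held 80.4% and 77.4% of Il33 UMIs and 55.9% and 30.6% of Areg UMIs (control and fibrosis). With each cell gated by itself they held 93.8% and 94.9% of Il33, type 2 dendritic-like cells held 16.4% of Il1rl1 in the fibrosis library, alveolar macrophage-like cells 19.2% of Il4ra in the fibrosis library and classical monocyte-like cells 29.1% of Il4ra in the control library. That last share was 21.3% as reported in the main processing, 26.9% at resolution 0.5, 24.9% at resolution 2, 30.0% with a floor of 2000 UMIs and 31.8% with a mitochondrial limit of 5%. The limit of 5% also gave AT2-like cells 86.7% of control Il33, and 56.5% and 35.6% of Areg; the floor gave NK-like cells 15.9% of control Gata3. Without thinning, the share of alveolar macrophage-like cells with Il4ra differed by 4.66 percentage points, against 0.739 thinned. Genes past 2-fold made up 2.30%, 3.74%, 3.88% and 3.64% of those with at least 50 UMIs in AT2-like, NK-like, alveolar macrophage-like and type 2 dendritic-like cells, and 9.47%, 18.05%, 12.5% and 15.2% from 5 UMIs. Leaving out the top cell of each library took Il13 to 0 and 18 UMIs. The causes were not tested. Scaling by the median gene shifted ratios by over 0.1 in club-like (0.32), neutrophil-like (0.24) and ciliated-like (0.13) cells. Depth limits Il13, Il5 and Il4 most: few cells hold 1 UMI, and 1 mouse a group gives no spread between animals.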

Other observations

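Other type 2 products were scarce in both libraries. Il9, Il3 and Il31 were at 0 in all kept cells. Il6 had 0 UMIs in control and 11 in fibrosis AT2-like cells, and Csf2, a growth factor of alveolar macrophages, 33 in each. As levels, the Csf2 counts were 5.54 and 3.39 CPM (log2 ratio −0.71, −1.45 to 0.03). Of the 3 clusters set aside as mixed, the 2 that carried AT2 markers beside those of neutrophils or B cells held 41 Il33 UMIs in 20 control cells and 369 in 102 fibrosis cells, 1.96% and 6.71% of the total. The other, with neutrophil and B cell markers, held 0 in 40 and 32 cells.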
